A study of Mus musculus with 16 samples.

Results

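The genes of the Ikaros zinc-finger family, *Ikzf1* to *Ikzf5*, were examined for open chromatin at 4 stages of mouse thymocyte development. A peak was assigned to a gene when it lay in the gene body or within 50 kb on either side, by the GENCODE M21 annotation of mm10 (GRCm38). The 5 genes were 5 of 20780 autosomal protein-coding genes, and their windows held 131 of 150139 DN, 130 of 107110 DP, 136 of 115074 SP4 and 156 of 104411 SP8 peaks. Peaks that overlapped by 1 bp or more in any of the lists were joined into regions, 186 at these genes and 185978 in the genome.

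Thymocytes came from 4 wild-type C57BL/6J mice, 9 weeks old, with no treatment and no transgene. Cells were sorted by flow cytometry after exclusion of erythroid, B, myeloid, dendritic, natural killer and gamma delta T cells. The DN cells lacked CD4, CD8 and CD3, the DP cells carried both CD4 and CD8, and the SP4 and SP8 cells carried CD3 with CD4 or CD8 alone. Each mouse gave 1 library per stage, 16 in all, and the authors called peaks once per stage on the pooled reads of the 4 mice. No value below therefore has a replicate error, no test between stages was possible, and all differences are descriptions of 4 pooled lists. Intervals on shares are 95% Wilson intervals and cover counting error only. The lists do not carry read depth, so signal that fell short of the threshold may be present where no peak was called. A lower peak in a sorted population can mean that fewer cells were open or that each cell was less open, and these cannot be told apart.

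Ikaros family proteins bind DNA through zinc fingers near their amino terminus and form dimers with each other through zinc fingers near their carboxy terminus. They associate with the NuRD chromatin remodelling complex and can repress or support transcription. Ikaros (*Ikzf1*) is needed for lymphocyte development and restrains the growth of thymocytes. Aiolos (*Ikzf3*) acts in maturing lymphocytes, Helios (*Ikzf2*) and Eos (*Ikzf4*) are best known from regulatory T cells, and Pegasus (*Ikzf5*) is the most divergent member.

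The regions that carry the results are named by gene and by their order along the chromosome. The first set shows the DNA just before the outermost start site of each gene, within the region called over it, outside annotated exons of coding genes and at most 150 bases long. Each stretch is read 5′ to 3′ on the strand of its gene, and capitals mark letters searched for (described with the counts further on), on either strand. The *Ikzf2* stretch was rich in G and C (77.3%). The *Ikzf4* stretch consisted almost wholly of CT and CA repeats. The *Ikzf5* stretch filled the gap between *Ikzf5* and *Acadsb*, which are transcribed away from each other.
Ikzf1-15, chr11:11684853-11685002, plus strand: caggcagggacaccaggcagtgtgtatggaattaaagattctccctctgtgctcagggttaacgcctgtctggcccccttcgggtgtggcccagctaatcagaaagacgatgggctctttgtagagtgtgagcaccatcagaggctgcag
Ikzf2-33, chr1:69687246-69687355, minus strand: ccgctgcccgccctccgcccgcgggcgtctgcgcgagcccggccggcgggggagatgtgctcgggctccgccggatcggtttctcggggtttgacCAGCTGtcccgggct
Ikzf3-42, chr11:98546032-98546170, minus strand: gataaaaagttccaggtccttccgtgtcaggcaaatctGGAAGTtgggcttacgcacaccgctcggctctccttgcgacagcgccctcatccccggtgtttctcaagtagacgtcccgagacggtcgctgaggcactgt
Ikzf4-14, chr10:128645992-128646141, minus strand: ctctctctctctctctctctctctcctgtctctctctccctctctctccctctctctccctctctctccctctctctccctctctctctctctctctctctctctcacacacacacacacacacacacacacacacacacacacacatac
Ikzf5-5, chr7:131410522-131410600, minus strand: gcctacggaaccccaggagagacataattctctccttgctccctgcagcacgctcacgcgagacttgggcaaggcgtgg

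The second set shows the region of *Ikzf1*, *Ikzf2* and *Ikzf3* with the largest difference in height between stages, up to 300 bases around the summit.
Ikzf1-1, chr11:11636161-11636454, plus strand: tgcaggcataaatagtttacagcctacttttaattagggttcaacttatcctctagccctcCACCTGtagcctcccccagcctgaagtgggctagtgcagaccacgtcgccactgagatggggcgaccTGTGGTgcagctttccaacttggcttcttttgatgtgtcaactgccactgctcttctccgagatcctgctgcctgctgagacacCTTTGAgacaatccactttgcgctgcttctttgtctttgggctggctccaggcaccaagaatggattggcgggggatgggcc
Ikzf2-6, chr1:69544221-69544520, minus strand: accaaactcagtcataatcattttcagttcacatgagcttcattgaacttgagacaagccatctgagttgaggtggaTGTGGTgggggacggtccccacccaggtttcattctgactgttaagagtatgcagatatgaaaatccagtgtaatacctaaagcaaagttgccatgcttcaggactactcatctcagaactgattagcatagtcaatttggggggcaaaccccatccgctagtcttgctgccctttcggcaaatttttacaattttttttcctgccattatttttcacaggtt
Ikzf3-47, chr11:98563114-98563368, minus strand: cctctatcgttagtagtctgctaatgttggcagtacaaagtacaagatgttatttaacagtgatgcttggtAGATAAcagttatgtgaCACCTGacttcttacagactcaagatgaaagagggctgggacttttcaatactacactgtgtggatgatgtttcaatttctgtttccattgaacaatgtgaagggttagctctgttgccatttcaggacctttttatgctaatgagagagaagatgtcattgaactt

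The numbers of peaks differed between genes more than between stages. *Ikzf1* (chr11:11685003-11772926, plus strand) had 43 peaks (DN), 41 (DP), 47 (SP4) and 50 (SP8). *Ikzf3* (chr11:98464902-98546031, minus strand) had 34, 42, 40 and 45 in the same order. *Ikzf2* (chr1:69531214-69687245, minus strand) had 28, 24, 24 and 38. SP8 thus had the highest count of peaks at each of these 3 genes. Counted as joined regions, *Ikzf1* had 41 (DN), 39 (DP), 45 (SP4) and 44 (SP8), so SP4 was highest there. *Ikzf2* (26, 20, 23 and 34 regions) and *Ikzf3* (32, 38, 38 and 42) remained highest at SP8.

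*Ikzf4* (chr10:128630843-128645991, minus strand) had 20 peaks (DN), 18 (DP), 19 (SP4) and 19 (SP8). *Ikzf5* (chr7:131388652-131410521, minus strand) had 6, 5, 6 and 4. At both genes the stages differed by at most 2 peaks. With equal numbers of peaks from each list, *Ikzf4* had 13 (DN), 16 (DP), 17 (SP4) and 19 (SP8) and *Ikzf5* 5, 5, 6 and 4, so the place of DN in the order depended on the length of its list.

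**Figure D1:**
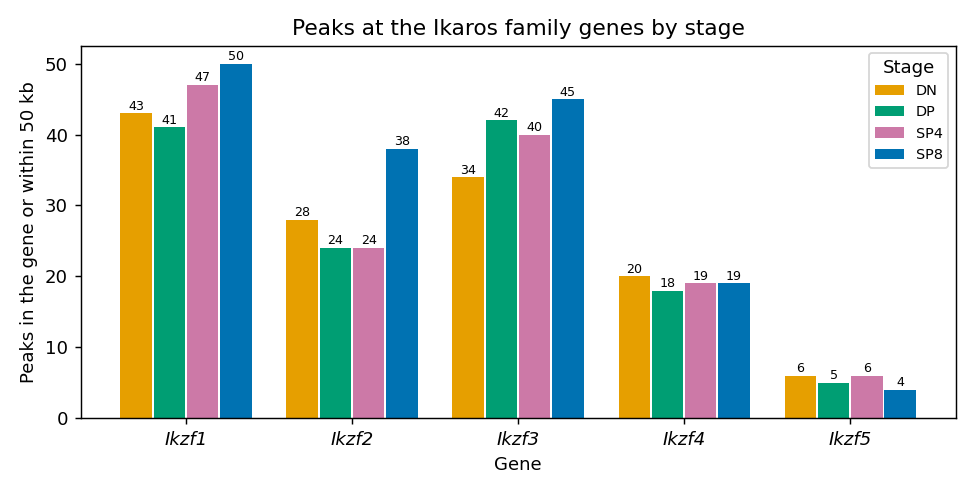
Number of peaks (vertical axis) in each gene (horizontal axis) or within 50 kb of it, by stage, with 1 bar per pooled list and no error bars because the mice were pooled. *Ikzf1*, *Ikzf2* and *Ikzf3* had their highest bars at SP8 (50, 38 and 45 peaks), and *Ikzf5* had 4 to 6 peaks at every stage.

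The DN list was 1.44 times as long as the SP8 list. Of all coding genes, 7.84% had more SP8 than DN peaks in the same window, against 3 of the 5 Ikaros family genes. With equal numbers of peaks from each list, a background chosen after seeing the data, the share was 37.2% of coding genes against 4 of the 5. The family held 0.0873% of the DN list, 0.121% of the DP list, 0.118% of the SP4 list and 0.149% of the SP8 list. Peaks covered 8.24% of the *Ikzf1* window at DN and 8.04% at SP8, so the larger number of SP8 peaks there did not come with more covered sequence. At *Ikzf2* the covered share was 2.67% (DN), 2.24% (DP), 3.14% (SP4) and 4.21% (SP8). At *Ikzf3* it was 6.45%, 6.79%, 8.02% and 8.0%.

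Windows of different lengths were compared as peaks per length. Among the 20780 coding genes, *Ikzf1* exceeded 87.8% (DN), 94.5% (DP), 98.2% (SP4) and 98.9% (SP8) of genes in peaks per length of window. *Ikzf3* exceeded 76.5%, 96.3%, 95.3% and 98.0%. *Ikzf2* lay near the middle at DN, DP and SP4 and higher at SP8, at 47.4%, 55.5%, 53.1% and 80.0%. *Ikzf4* exceeded 71.3% to 85.2% of genes, and *Ikzf5* 26.0% to 32.4%. *Ikzf1* and *Ikzf3* therefore stood among the densest windows from DP onward, and *Ikzf5* was below the median gene at every stage.

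Of the 186 regions, 85 were called at all 4 stages (45.7%, interval 38.7 to 52.9%), against 34.1% of all regions in the genome. A single stage called 53 (28.5%, 22.5 to 35.4%), against 38.5%. Regions called at SP8 and no other stage numbered 20 (10.8%, 7.07 to 16%), against 4.21%. Those called only at DN numbered 13 (6.99%, 4.13 to 11.6%), against 21.7%. The shares called only at DP (7 regions, 3.76%, against 5.17%) and only at SP4 (13 regions, 6.99%, against 7.39%) were near the background. Both SP stages and neither DN nor DP called 10 regions (5.38%, 2.95 to 9.61%), against 3.82%.

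By stage, 123 regions were called at DN (66.1%, against 75.7% of all regions), 119 at DP (64.0%, against 53.9%), 129 at SP4 (69.4%, against 58.3%) and 141 at SP8 (75.8%, against 53.0%). The family was thus below the background at DN and above it at the other stages. From DN to DP, 99 of 123 regions were called again (80.5%, against 59.5%). Of the DP regions, 98 of 119 were called at SP4 (82.4%, against 74.6%) and 101 at SP8 (84.9%, against 71.9%). The SP stages were not alike, with 32 regions called at SP8 but not SP4 (17.2%, against 9.24%) and 20 at SP4 but not SP8 (10.8%, against 14.6%).

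**Figure D2:**
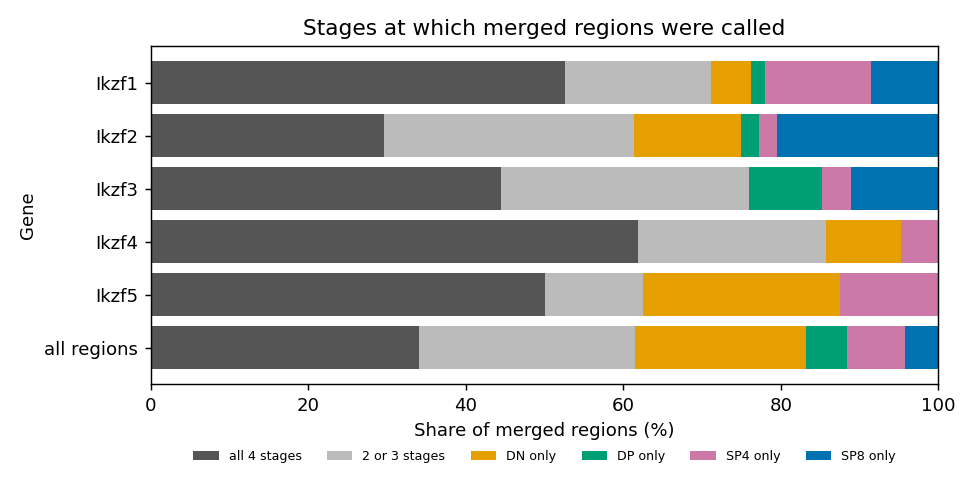
Share of merged regions in percent (horizontal axis) in each class of stages, for each gene and for all 185978 regions. Dark grey marks all 4 stages (31 of 59 regions at *Ikzf1*, 13 of 44 at *Ikzf2*), light grey 2 or 3 stages, and colours a single stage, with the widest SP8 share at *Ikzf2* (9 of 44).

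The single-stage regions were unevenly spread over the genes. *Ikzf1* had 3 (DN), 1 (DP), 8 (SP4) and 5 (SP8). *Ikzf2* had 6, 1, 1 and 9, and *Ikzf3* had 0, 5, 2 and 6. *Ikzf4* had 2 at DN and 1 at SP4, as did *Ikzf5*. SP4-only regions were thus most frequent at *Ikzf1* and SP8-only regions at *Ikzf2*, while every DP-only region but 2 lay at *Ikzf3*.

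By place, the family's regions were 77 in introns, 47 in 5′ flanks, 44 in 3′ flanks, 10 over other exons and 8 at start sites. Of the intronic regions, 46 (DN), 51 (DP), 51 (SP4) and 63 (SP8) were called, and of those in the 5′ flanks 30, 22, 28 and 35. In the 3′ flanks the counts were 35, 33, 36 and 31. Over the 5 genes together, SP8 thus had the highest of the 4 counts in introns and in 5′ flanks and the lowest in 3′ flanks. In introns, *Ikzf2* (15, 13, 14 and 20) and *Ikzf3* (10, 14, 11 and 18) were highest at SP8. *Ikzf1* introns were highest at SP4 (20, 23, 26 and 24). In the 5′ flanks the lead of SP8 rested on *Ikzf2*, with 4 (DN), 3 (DP), 4 (SP4) and 11 (SP8). *Ikzf1* had 10, 7, 7 and 8 there, *Ikzf3* 9, 6, 9 and 10, *Ikzf4* 6, 5, 6 and 6, and *Ikzf5* 1, 1, 2 and 0. Shares by place over all regions of the genome were not computed.

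Heights are given as percentiles, the share of peaks in the same list with a lower fold enrichment at the summit. A percentile also depends on how many weak peaks its list holds, and over all regions of the genome called at every stage the median was 73.5 (DN), 68.2 (DP), 69.4 (SP4) and 67.1 (SP8). Most single-stage regions were low. The median percentile was 26.0 for the 13 DN-only regions (range 8.56 to 84.7), 15 for the 7 DP-only regions (1.83 to 34.7), 7.86 for the 13 SP4-only regions (1.04 to 70.8) and 13.9 for the 20 SP8-only regions (0.866 to 71.4). In all regions of the genome the medians were 30.2, 19.3, 23.2 and 17.1. A call at a single stage was therefore often a weak peak, and signal under the threshold at the other stages was not tested.

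The regions called at all 4 stages had no common stage of greatest height. The highest percentile was at DN in 26 of 85 (30.6%, against 35.0% of all such regions), at DP in 22 (25.9%, against 21.5%), at SP4 in 23 (27.1%, against 23.8%) and at SP8 in 14 (16.5%, against 19.7%). All 4 intervals included the background. The median difference between the highest and the lowest stage was 25.0 percentile points, against 20.9 in all such regions. The differences were largest at *Ikzf3* (median 35.7) and smallest at *Ikzf5* (10.6).

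All 5 genes had a peak over at least 1 annotated start site at all 4 stages, as did 56.7% of coding genes. A start site was the first base of a transcript with the 200 bp before it. The start-site regions differed widely in height.

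At *Ikzf1*, the 5 start sites lay close together. Region Ikzf1-15 (chr11:11684528-11685753) covered the outermost one and had percentiles of 50.6 (DN), 48.1 (DP), 60.5 (SP4) and 63.9 (SP8). Region Ikzf1-16 (chr11:11685845-11686392) lay over the next ones, with percentiles of 12.3, 50.5, 12.0 and 10.3. It was thus of middle height at DP and low at the other stages by fold enrichment. By q-value its percentiles were 44.7, 71.8, 47.6 and 43.3, again highest at DP. At DN and DP its peaks also reached the 200 bp before the innermost start site, which had no peak at SP4 or SP8. RefSeq places a second start further into the gene, at chr11:11690177, under region Ikzf1-17 (chr11:11689934-11690662), whose percentiles were 62.7, 42.1, 58.9 and 46.3.

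At *Ikzf3*, region Ikzf3-42 (chr11:98545648-98546170) covered the start sites of the protein-coding transcript and of the outermost transcript. Its percentile was 75.0 (DN), 65.2 (DP), 55.3 (SP4) and 32.8 (SP8), and its fold enrichment was 9.83, 7.62, 6.63 and 4.49. By q-value its percentiles were 72.8, 80.7, 79.8 and 64.8, so the decreasing order DN, DP, SP4, SP8 held for fold enrichment alone. The start-site peak of *Ikzf3* was thus lowest at SP8, the stage with the most peaks around the gene. A short non-coding transcript that starts inside the gene had a low peak over its start at SP4 and SP8 alone (Ikzf3-20, chr11:98477507-98477679, percentiles 5.35 and 7.36).

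At *Ikzf2*, 4 of 7 start sites had no peak at any stage, including that of the transcript from which distances were measured (chr1:69685821). Region Ikzf2-33 (chr1:69687036-69687355) covered the outermost start site and had percentiles of 48.7, 52.6, 43.6 and 43.4, which differed by 9.20 points at most. Region Ikzf2-32 (chr1:69684696-69684847), before the start of a transcript with a retained intron, had low peaks at DN (8.82) and DP (9.27) and none at the SP stages.

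*Ikzf4* and *Ikzf5* had the highest and steadiest start-site peaks of the family. Region Ikzf4-14 (chr10:128645499-128646334) covered 6 of 7 start sites, with percentiles of 89.3, 90.5, 91.7 and 90.5. Region Ikzf5-5 (chr7:131409904-131410934) also covered 6 of 7, with percentiles of 90.5, 93.8, 90.7 and 89.7. The latter was shared with the start of *Acadsb*, which encodes an acyl-CoA dehydrogenase, so its height cannot be assigned to either gene. The genes with the fewest peaks thus had the highest start-site peaks.

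Within the *Ikzf1* window, 59 regions were found, of which 31 were intronic, 14 in the 5′ flank, 12 in the 3′ flank and 2 at start sites. At every stage the highest percentile of the window belonged to one of 2 upstream regions. Region Ikzf1-12 (chr11:11667655-11668352), 18.2 kb before the start, had percentiles of 97.8 (DN), 98.8 (DP), 90 (SP4) and 97.9 (SP8). Region Ikzf1-14 (chr11:11678690-11679586), 7.1 kb before it, had 98.5, 93.4, 96.1 and 84.7. These 2 regions were singled out after their values were seen, and both had higher percentiles than the start-site regions at every stage. By q-value, intronic region Ikzf1-35 (chr11:11725296-11726613) was the highest of the window at every stage, with percentiles of fold enrichment of 88.1, 84.4, 90.1 and 86.6.

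Other *Ikzf1* regions varied by stage. Region Ikzf1-1, 49.9 kb upstream and shown above, had percentiles of 87.7 (DN), 83.0 (DP), 10.5 (SP4) and 36.4 (SP8), with fold enrichments of 14.8, 12.9, 3.32 and 4.80. It was thus high in both immature stages and low in both SP stages. Intronic region Ikzf1-33 (chr11:11719803-11720135) had 75.9, 5.06, 65.6 and 53.5, with its low value at DP alone. Intronic region Ikzf1-42 (chr11:11750949-11751554) had 72.7, 38.0, 21.7 and 76.3, so that SP4 and SP8 were at opposite ends.

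The single-stage regions of *Ikzf1* were low. The 3 highest were Ikzf1-7 at DN (chr11:11651965-11652117, percentile 28.1), Ikzf1-2 at SP4 (chr11:11636954-11637053, 24.0) and Ikzf1-4 at SP8 (chr11:11646473-11646600, 23.0), all in the 5′ flank. The 8 SP4-only regions were spread from the 5′ flank through the introns to the 3′ flank, and 6 of them were below the 10th percentile. The SP4-only regions of *Ikzf1* were thus mostly weak peaks by fold enrichment. By q-value their percentiles ran from 4.89 to 36.8. In the 3′ flank, 8 regions lay between chr11:11774471 and chr11:11778064, none above a percentile of 40.7 at any stage.

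**Figure D3:**
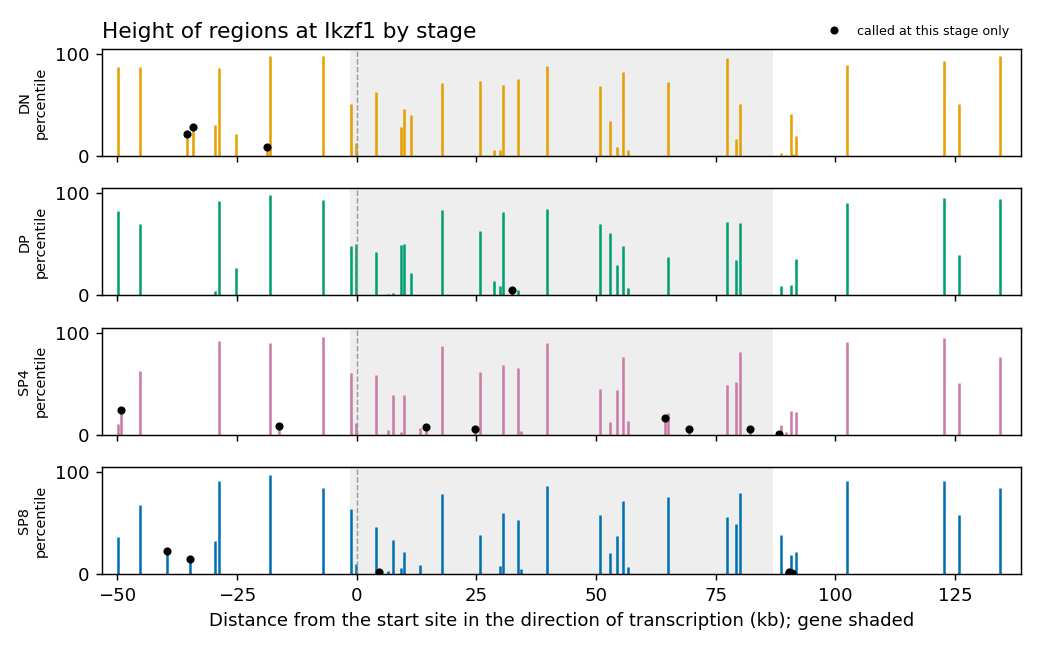
Height of *Ikzf1* regions as the percentile of fold enrichment within the list (vertical axis, 1 panel per stage) against distance from the start site in kb (horizontal axis). Lines are called regions, black points are regions called at that stage alone, the shaded band is the gene and the dashed line its start. The line farthest upstream (-49.9 kb) falls from 87.7 at DN to 10.5 at SP4.

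Within the *Ikzf3* window, 54 regions were found, of which 24 were called at all 4 stages. The window holds other coding genes, among them *Erbb2*, which encodes a receptor tyrosine kinase, and *Ormdl3*, a regulator of sphingolipid synthesis. Region Ikzf3-47 (chr11:98563114-98563368), 17.4 kb upstream of *Ikzf3* and in no other coding gene, had a percentile of 17.1 at DN, no peak at DP, 85.9 at SP4 and 41.4 at SP8. Its fold enrichment was 3.55, 15.4 and 5.24 at the 3 stages with a peak. Region Ikzf3-49 (chr11:98581673-98581953), inside *Ormdl3*, had 80.6 at DN, no peak at DP, 66.7 at SP4 and 51.7 at SP8. Both regions thus had a peak at every stage except DP.

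Region Ikzf3-13 (chr11:98458971-98459808), beyond the 3′ end of *Ikzf3*, showed another order, with percentiles of 73.5 (DN), 53.9 (DP), 1.73 (SP4) and 1.21 (SP8). At DN and DP it was 1 wide peak (838 and 821 bp), and at each SP stage 2 small ones. In the introns of *Ikzf3*, 10 (DN), 14 (DP), 11 (SP4) and 18 (SP8) regions were called. The highest single-stage regions were Ikzf3-19 (chr11:98476819-98476961, exon, percentile 34.7) and Ikzf3-35 (chr11:98518903-98519070, intron, 31.2) at DP, and Ikzf3-22 (chr11:98480103-98480210, intron, 26.0) at SP8. No *Ikzf3* region was called at DN alone.

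**Figure D4:**
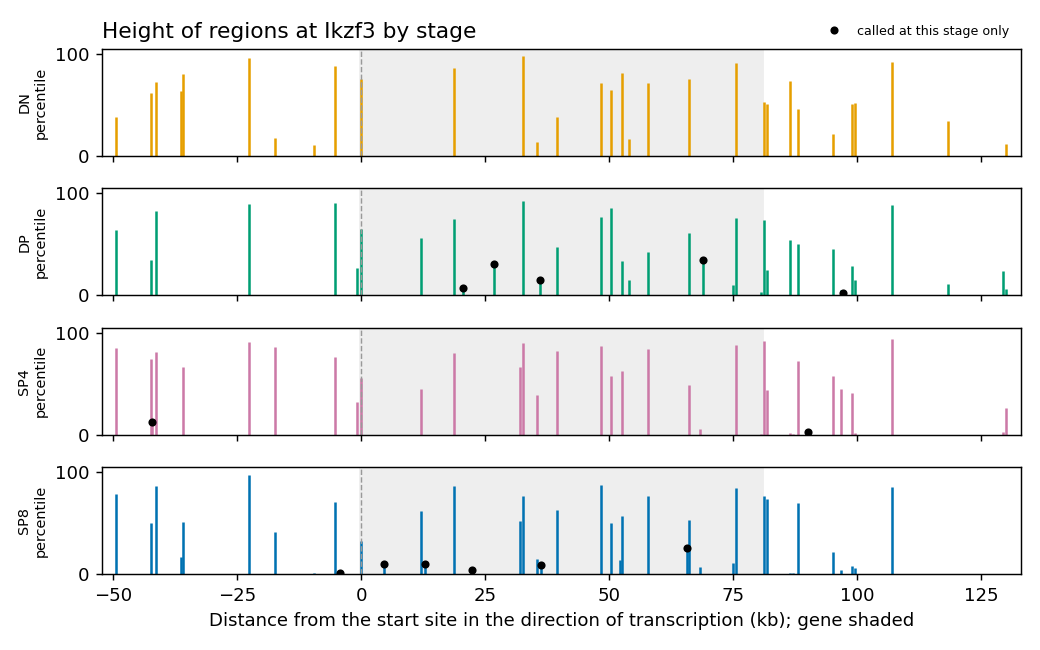
Height of *Ikzf3* regions as the percentile of fold enrichment within the list (vertical axis, 1 panel per stage) against distance from the start site in kb (horizontal axis), drawn in the direction of transcription. Lines are called regions, black points are regions called at that stage alone, and the band is the gene. The line at -17.4 kb is absent at DP and reaches 85.9 at SP4, and no black point appears at DN.

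The *Ikzf2* window holds no other coding gene, and 13 of its 44 regions were called at all 4 stages, the smallest share of the family. Its peaks were more numerous at SP8 than at the other stages, and SP4 had no more than DP. At *Ikzf2*, 15 regions were called at SP4 or SP8 and at neither DN nor DP, as were 15 at *Ikzf1*, 11 at *Ikzf3* and 1 each at *Ikzf4* and *Ikzf5*. Over the family these were 43 of 186 regions (23.1%), against 15.4% of all regions. The highest at *Ikzf2* was Ikzf2-6 (chr1:69544178-69544601), an intronic region near the 3′ end of the gene, with percentiles of 80.4 at SP4 and 92.8 at SP8 and fold enrichments of 12.8 and 20.7. Region Ikzf2-7 (chr1:69555591-69556206), the next intronic region, was also called at both SP stages alone, with percentiles of 62.1 and 55.3.

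The 5′ flank of *Ikzf2* set SP8 apart. Its 11 regions were all called at SP8, against 4 at DN, 3 at DP and 4 at SP4. The 8 regions from 17.9 to 44.1 kb upstream (chr1:69703594-69730011), a block singled out after its values were seen, were all called at SP8, against 1 each at DN, DP and SP4. The tallest were Ikzf2-40 (chr1:69718837-69719133), called at SP8 alone with a percentile of 71.4 and a fold enrichment of 10.4, and Ikzf2-41 (chr1:69719686-69720025), with 70.7 at SP8 and 47.4 at SP4. The next was Ikzf2-44 (chr1:69729773-69730011), with 55.5 at SP8 and 11.8 at DP. The other 5 had SP8 percentiles of 41.4, 41.4, 25.9, 33.5 and 19, and at Ikzf2-42 (chr1:69724889-69725149) the DN peak, at 53.3, was higher than the SP8 peak.

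Some *Ikzf2* regions were called at DN alone. The highest were Ikzf2-1 (chr1:69496160-69496440) in the 3′ flank and Ikzf2-11 (chr1:69591580-69591692) in an intron, both with a percentile of 44.1 and a fold enrichment of 5.10. Among the regions called at all 4 stages, intronic region Ikzf2-15 (chr1:69637870-69638781) had 92.7 (DN), 63.4 (DP), 70.3 (SP4) and 42.3 (SP8), and Ikzf2-23 (chr1:69657513-69657784) had 77.9, 67.1, 8.69 and 38.7. These 2 were named after their values were seen, and both were highest at DN.

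**Figure D5:**
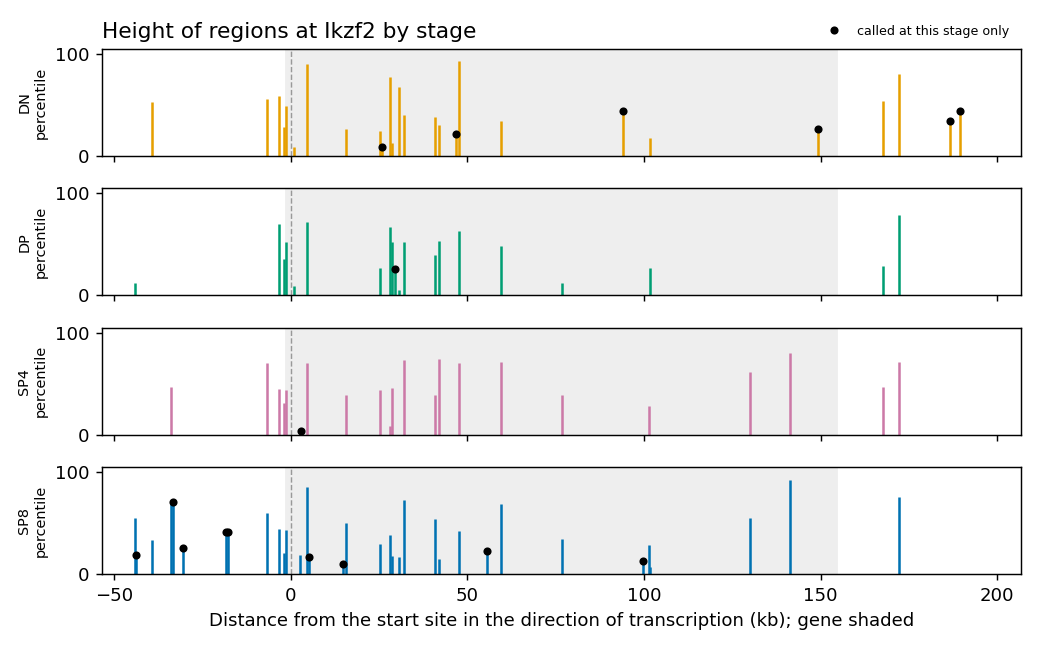
Height of *Ikzf2* regions as the percentile of fold enrichment within the list (vertical axis, 1 panel per stage) against distance from the start site in kb (horizontal axis), drawn in the direction of transcription. Lines are called regions, black points are regions called at that stage alone, and the band is the gene. Left of -17 kb, SP8 has 8 lines and each other stage 1, and the intronic line at 141.4 kb is present at SP4 and SP8 alone.

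At *Ikzf4*, 13 of 21 regions were called at all 4 stages. The gene itself is short and held 4 peaks (DN), 4 (DP), 2 (SP4) and 3 (SP8). Region Ikzf4-12 (chr10:128636577-128637509), over an exon and singled out after its values were seen, was the highest inside the gene, with 96.5, 96.8, 96.5 and 91.9. Region Ikzf4-15 (chr10:128646386-128646745), just upstream of the start, had 74.4 (DN), 19.9 (DP), 64.5 (SP4) and 55.1 (SP8), while the adjoining start-site region stayed within 2.45 points. The 2 largest differences lay at *Erbb3*, which encodes a receptor tyrosine kinase. Region Ikzf4-2 (chr10:128586960-128587451) had 92.0, 87.7, 18.2 and 76.6, and Ikzf4-4 (chr10:128589323-128589827) had no peak at DN and then 9.40, 63.3 and 22.5. Region Ikzf4-9 (chr10:128626273-128626533), at the start of the ribosomal protein gene *Rps26* and named after its values were seen, had 8.41, 61.4, 46.2 and 24.8.

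The single-stage regions of *Ikzf4* were Ikzf4-1 at SP4 (chr10:128584556-128584714, percentile 34.9, inside *Erbb3*) and Ikzf4-7 (chr10:128612536-128612635, 19.6) and Ikzf4-17 (chr10:128668787-128668930, 12.9) at DN. No *Ikzf4* region was called at SP8 alone or at DP alone. Without peaks at or in other coding genes, an alternative chosen after seeing the data, *Ikzf4* had 14 (DN), 11 (DP), 11 (SP4) and 11 (SP8) peaks.

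*Ikzf5* had 8 regions, and each of them lay at or in another coding gene as well. Inside *Ikzf5* the start-site region was the only one at any stage. Region Ikzf5-1 (chr7:131355652-131355941), at the start of 2310057M21Rik, was called at DN alone and was high there, with a percentile of 84.7 and a fold enrichment of 13.3. Region Ikzf5-8 (chr7:131437142-131437347), inside *Acadsb*, was called at SP4 alone with a percentile of 70.8. These were the highest single-stage regions of the family beside Ikzf2-40. Region Ikzf5-4 (chr7:131371988-131372220), inside *Pstk*, a kinase gene of selenocysteine synthesis, had 83.3, 64.0, 69.7 and 53.5. The remaining DN-only region was Ikzf5-7 (chr7:131432420-131432544, percentile 26.0).

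Genes with the most similar numbers of regions in the classes of stages were listed for each family member, by the Bray-Curtis distance over the 15 possible classes. A distance of 0 means the same counts in every class, so nearness depends on the number of regions as well as on their stages. For *Ikzf1* the nearest were *Trim14* (0.164), *St8sia1* (0.173) and *Tgfbr2* (0.176), a receptor gene of the TGF-beta pathway, with a median distance of 0.579 over 16924 genes. For *Ikzf2* they were *Spg11* (0.150), *Kpna4* (0.169) and *Xirp1* (0.175), against a median of 0.457. For *Ikzf3* they were *Rasa3* (0.133), *Tap2* (0.161) and *Slco3a1* (0.162), against 0.595. *Ikzf4* was nearest to *Tagap* (0.0952), *Fastkd5* (0.100) and *Tmub1* (0.100), and *Ikzf5* to *BC048507*, *Hsp90b1* and *Klk5* (0.0667 each), with few regions behind each value. No family member was among the nearest genes of another.

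Short letter strings known as cores of factor binding sites were searched on both strands without mismatch, in 300 bp around the summit. A match describes letters and is not a binding site. The Ikaros letters TGGGAA were found at 46 of the 186 regions (24.7%, 19.1 to 31.4%), against 23.6% of all regions. The ETS letters GGAAGT were at 29.6% (against 28.9%), the E-box letters CAGCTG or CAGGTG at 44.6% (45.2%), the GATA letters AGATAA at 14.5% (12.7%) and the TCF letters CTTTGA at 23.7% (22.0%). Where TGGGAA is followed by GT, the same bases also hold the ETS letters. The shares were close to the background for these 5. The RUNX letters TGTGGT were at 43 regions (23.1%, 17.6 to 29.7%), against 31.5%. In the printed stretches, Ikzf2-33 held CAGCTG, Ikzf3-42 held GGAAGT, and Ikzf2-6 held TGTGGT. None of the 8 stretches held TGGGAA.

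Ikaros proteins work with the NuRD complex, whose genes were examined by the same rule. Of 12 autosomal NuRD genes, 9 had a peak over a start site at DN and 11 at each later stage, and 9 did at all 4. Of all coding genes, 65.7% (DN), 61.3% (DP), 59.6% (SP4) and 59.6% (SP8) had one. *Mta1* and *Mta3*, which encode NuRD scaffold subunits, had none at DN and one at each later stage, and *Chd3*, a remodelling helicase gene, had none at any stage. The NuRD windows together held 369 peaks (DN), 291 (DP), 289 (SP4) and 307 (SP8). Their count was highest at DN, the stage with the longest list. Of 5 other partner genes (*Sin3a*, *Sin3b*, *Ctbp1*, *Ctbp2* and *Smarca4*), all had a start-site peak at DN and DP, and 4 did at SP4 and SP8, *Ctbp2* being the exception.

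The labels of the lists were checked by start-site peaks at marker genes. *Zbtb7b*, the factor of the CD4 lineage, had one at SP4 alone, and *Nkg7*, a cytotoxic granule gene, at DN and SP8. *Notch3*, listed as a DN marker, went against its label, with a start-site peak at SP4 and SP8 and none at DN or DP. *Il2ra*, *Kit*, *Rag1*, *Cd4* and *Cd8a* had start-site peaks at all 4 stages, so most stage markers did not separate the lists. Of 8 myeloid markers, 6 (DN), 2 (DP), 2 (SP4) and 3 (SP8) had a start-site peak, with *Spi1*, *Lyz2* and *Csf3r* at DN alone. Of 6 dendritic markers 4, 3, 2 and 3 did, and of 5 erythroid markers 4, 3, 2 and 3. The share of all coding genes with a start-site peak was 65.7% (DN), 61.3% (DP), 59.6% (SP4) and 59.6% (SP8). Among B cell markers, *Ebf1*, *Cd79b*, *Blk* and *Vpreb1* had a start-site peak at all 4 stages, *Pax5* at DN and DP alone, *Cd22* at SP4 and SP8 alone and *Cd79a* at none. Of 6 natural killer markers 4 and of 3 regulatory T cell markers 3 had one at every stage. Of the gamma delta markers, *Sox13*, *Blk* and *Zbtb16* had a start-site peak at every stage and *Il17a* at none. The gamma delta marker *Tcrg-C1* was not in the set of coding genes, so its start site was not assessed. The part of B, myeloid, dendritic and erythroid cells in the DN-only regions of *Ikzf2* and *Ikzf5* was not tested.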

How the data were processed

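ATAC-seq measures open chromatin by the insertion of a transposase. Trimmed reads were aligned by the authors with BWA (mm10) and duplicates were taken out with Picard. Only uniquely mapped proper pairs were kept, and each library was reduced to the median depth. The 4 mice of a stage were then pooled, and narrow peaks were called with MACS2 at 5% FDR and cleared of blacklisted regions. The deposited lists hold 1 line per peak. Heights rest on the fold enrichment of the summit over local background, a ratio that the authors deposited. The −log10 q-value, also deposited by the authors, served in alternatives, and the −log10 p-value and the score that the authors deposited were not used. Unmapped columns numbered 0. Reads were not used here, and the lists do not carry depth. Uniquely mapped reads leave repeats under-represented, and pooling hides differences between mice.

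Groups came from the sample titles. The members and gene lists were chosen with earlier results of these data known. Coordinates are 1-based mm10, checked against the reference (0 peaks past a chromosome end). The lists hold 0 peaks on X or Y. Distances run from the start of 1 transcript per gene to the middle of a region. Percentiles, merging (checked with bedtools 2.31.1) and counts were computed in Python 3.11.15 with pandas 2.3.3, numpy 2.4.6 and scipy 1.17.1, tested on simulated data first. The regions named were those over a start site, the 3 highest single-stage regions of each gene and the 3 with the largest difference in percentile between stages (0 without a peak), 35 in all. Other regions named were chosen after their values were seen. *Cd40lg*, *Foxp3* and *Rbbp7* lie on X, *Hbb-b1* was not matched by symbol, and these 4 were left out. One marker is not reported here. Start-site sequences were read from the GRCm38 reference. The closing section gives the alternatives.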

Additional observations from a re-analysis of the deposited data

How the results depend on the processing

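SP8 had the highest total of the 4 stages, and *Ikzf1*, *Ikzf2* and *Ikzf3* had more SP8 than DN peaks, under each of the 7 alternatives that recounted the peaks. All 5 genes kept a start-site peak at all 4 stages under each alternative run for it. The window set the size of the counts. In the gene body alone, peaks numbered 60 (DN), 69 (DP), 68 (SP4) and 82 (SP8) and covered 18947, 19692, 21287 and 24484 bp, in 95 regions with 43 called at all 4 stages, 26 at a single one, 4 at DN only, 6 at SP4 only and 10 at SP8 only. Within 10 kb, DN peaks numbered 82, and covered sequence was 26914 bp (DN), 27986 bp (DP) and 31308 bp (SP4), in 120 regions with 31 called at a single stage, 4 at DN only, 8 at SP4 only and 13 at SP8 only. Within 100 kb, DN-only regions rose to 24 and DP-only regions to 12. With equal numbers of peaks from each list, DN-only regions fell to 3, and the highest percentile, recomputed within the shorter lists, was at DN in 17 regions, at DP in 24, at SP4 in 15 and at SP8 in 18. *Ikzf4* then had 13 DN peaks, the lowest of its stages. Merging at 100 bp of overlap gave 11 DP-only regions, and percentiles by q-value put 14 regions highest at DP. Shares over all regions of the genome were not recomputed under these alternatives. The changes in region counts therefore cannot be read as particular to these genes. Without peaks at or in other coding genes, *Ikzf5* had 0 at every stage. No paired analysis was possible because the mice were pooled within each list, and leaving out a replicate could not be run for the same reason.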
